A study of Mus musculus with 12 samples.

Results

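The genes described here are 8 long noncoding RNAs chosen by symbol. Gas5, Snhg1, Snhg3, Snhg6, Snhg8 and Snhg12 carry small nucleolar RNAs (snoRNAs) in their introns, and Neat1 and Malat1 are retained in the nucleus. Of the 8 symbols, 7 were among the 17007 symbols of the deposited table, and Snhg3 was not analysed here. All 7 passed the filter on low values (at least 0.5 FPKM, fragments scaled to gene length and library size, in at least 3 libraries), which left 14393 genes for testing.

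RNA-Seq of mouse liver compared 4 groups of 3 libraries. Normal livers came from untreated wild-type C57BL/6 mice. The 9 tumor libraries came from *Rictor* fl/fl *Tsc2* fl/fl mice whose hepatocytes had received c-MYC, MCL1 and Cre plasmids by tail vein injection, with Cre driven by the CMV promoter. By design, deletion of *Rictor* (a subunit of mTOR complex 2), deletion of *Tsc2* (a brake on mTOR complex 1) and both oncogenes were therefore shared by all tumors, and no tumor group with intact alleles was among them. Vehicle, MLN0128 (an inhibitor of the mTOR kinase, and so of both complexes) or everolimus (a rapamycin analog that acts on mTOR complex 1) was given by gavage, each drug at 1 mg/kg a day. Per the labels, dosing began 6 days after injection, ran for 3 weeks at 6 days a week, and mice were killed 3.7 weeks after injection. The study's own account of the RNA-Seq experiment instead gives 3 days of dosing with either drug. How long the drugs acted before sampling is therefore unsettled for every drug comparison here. The age of the mice was not given in the sources used here. In these bulk samples, fewer cells of a type and less RNA per cell cannot be told apart.

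snoRNAs guide the chemical modification of ribosomal RNA, and most are cut out of introns of host genes. Many hosts, coding or not, begin with a 5′ terminal oligopyrimidine (TOP) tract, the element that places the translation of ribosomal protein mRNAs under mTOR complex 1. The spliced RNA of a noncoding host such as Gas5 has short reading frames and is degraded by nonsense-mediated decay when it is translated, so its level depends on translation as well as on transcription. Neat1 is the scaffold of paraspeckles, nuclear bodies that hold proteins and edited RNA. Malat1 accumulates in nuclear speckles, the sites where splicing factors are stored.

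The starts of the host RNAs are shown because the TOP tract lies there. RefSeq entries for promoters on GRCm38.p6 matched 6 of the 8 genes, with none for Snhg6 and Neat1. Each stretch holds 30 bases before and 30 bases from the annotated start site onward, and capitals mark the unbroken run of C and T that begins at that site.
Gas5, chr1:161035136-161035195, plus strand: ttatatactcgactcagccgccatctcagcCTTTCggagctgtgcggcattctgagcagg
Snhg8, chr3:123508307-123508366, minus strand: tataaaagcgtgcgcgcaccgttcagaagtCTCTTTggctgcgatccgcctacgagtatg
Snhg12, chr4:132308648-132308707, plus strand: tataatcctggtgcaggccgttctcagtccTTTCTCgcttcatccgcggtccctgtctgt
Snhg1, chr19:8723457-8723516, plus strand: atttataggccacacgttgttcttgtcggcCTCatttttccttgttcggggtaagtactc
Malat1, chr19:5802643-5802702, minus strand: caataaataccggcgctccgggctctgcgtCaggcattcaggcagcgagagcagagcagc
A C at the start followed by at least 4 more pyrimidines was present at Gas5 and Snhg8, against 2.51% of 32851 promoters of the same table. The run at Snhg12 was 6 pyrimidines long and began with T, the run at Snhg1 ended after 3, and Malat1 had its first C alone. A second, upstream Gas5 start had no such run, nor had the start of Snhg3. The MYC E-box letters CACGTG, and CACGCG, were searched on both strands of the 300 bases (250 before and 50 after the start). Neither was in any of the 7 windows, while 7.15% and 9.27% of all promoters held them. These matches describe letters near 1 annotated base, and a start a few bases away would give another run.

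The snoRNAs are what the introns carry, and 1 is printed for each of 4 hosts. Box C/D snoRNAs, which direct 2′-O-methylation, have a C box (TGATGA) near the 5′ end and a D box (CTGA) near the 3′ end, both in capitals; box H/ACA snoRNAs, which direct pseudouridylation, end shortly after an ACA, in capitals. All are GENCODE entries on GRCm38.
Snord47 in Gas5, chr1:161038082-161038158, plus strand: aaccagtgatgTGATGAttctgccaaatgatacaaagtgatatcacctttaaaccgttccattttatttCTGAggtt
Snord87 in Snhg6, chr1:9942463-9942549, minus strand: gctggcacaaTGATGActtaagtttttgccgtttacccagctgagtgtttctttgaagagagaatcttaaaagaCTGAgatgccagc
Snord99 in Snhg12, chr4:132310691-132310764, plus strand: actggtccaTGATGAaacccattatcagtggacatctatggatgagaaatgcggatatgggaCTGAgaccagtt
Snora24 in Snhg8, chr3:123507937-123508066, minus strand: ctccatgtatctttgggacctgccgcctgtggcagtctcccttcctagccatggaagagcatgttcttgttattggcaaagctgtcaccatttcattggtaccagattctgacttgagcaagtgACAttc
The annotation placed 9 snoRNA loci in Gas5, 8 in Snhg1, 4 in Snhg12, 2 in Snhg3 and 1 each in Snhg6 and Snhg8. None of these snoRNAs is a row of the table, and the values below are those of the host genes. In Gas5, Snhg1, Snhg8 and Snhg12 every snoRNA lies wholly within the union of annotated exons of its host. Whether reads from snoRNA sequence or unspliced RNA are part of the host values was not tested.

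The 3′ ends of Neat1 and Malat1 are shown because they decide whether an RNA has a poly(A) tail. The short Neat1 RNA ends with a poly(A) signal (AATAAA, capitals), whereas the long Neat1 RNA and Malat1 are cut by RNase P after an A-rich stretch and have no poly(A) tail. The capitals in the other pair mark the 11 bases that end long Neat1 and recur once in Malat1.
Neat1, short (3004 bases), chr19:5842307-5842366, minus strand: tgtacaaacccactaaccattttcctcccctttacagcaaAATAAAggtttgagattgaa
Neat1, long (20771 bases), chr19:5824708-5824767, minus strand: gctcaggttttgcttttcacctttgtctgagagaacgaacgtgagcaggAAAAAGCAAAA
Malat1 (6983 bases), chr19:5795982-5796041, minus strand: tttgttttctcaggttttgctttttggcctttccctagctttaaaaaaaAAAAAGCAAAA
In Malat1 the match ended 292 bases before the annotated end of the transcript. The labels name poly(A) capture or rRNA removal without saying which was used, and the table gives 1 value per gene. Short and long Neat1 therefore cannot be told apart here, and a difference in how well tailless RNA was captured was not tested.

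**Figure D1:**
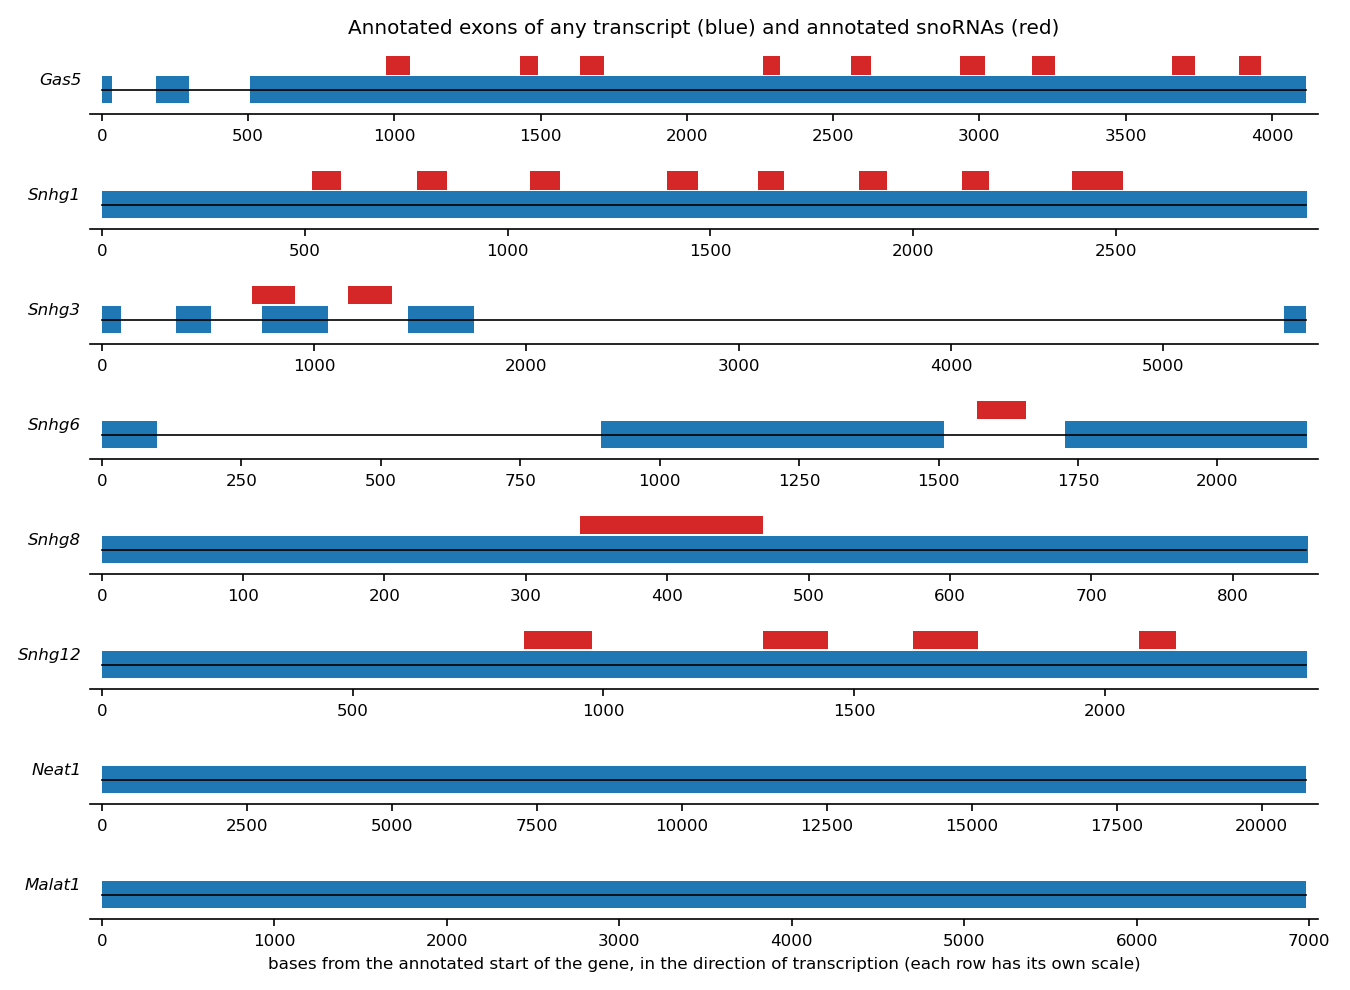
Exons of any annotated transcript (blue) and annotated snoRNAs (red) of the 8 genes, each on its own scale in bases from the annotated gene start in the direction of transcription. Gas5 holds 9 snoRNA loci, Snhg1 8 and Snhg12 4, while Neat1 and Malat1 hold none.

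On GRCm38, Gas5 spans chr1:161034422-161038539 (plus), Snhg6 chr1:9941959-9944118 (minus) and Snhg8 chr3:123507552-123508404 (minus). Snhg12 spans chr4:132308623-132311024 (plus) and Snhg1 chr19:8723475-8726443 (plus). Neat1 (chr19:5824708-5845478) and Malat1 (chr19:5795690-5802672) lie 22036 bases apart on the minus strand of one chromosome. Retained introns are annotated for 20 of the 25 Gas5 transcripts, and the union of exons shrinks from 3760 to 851 bases without them. For Snhg1 the same lengths are 2969 and 865 bases. FPKM divides by gene length, so a level of Gas5 or Snhg1 set against another gene depends on which length was used. Across genes, FPKM times the union with retained introns fell close to whole reads (98.2% to 98.9% of values under 20 reads). This was not checked for Gas5 and Snhg1 alone. A ratio of FPKM of 1 gene between libraries does not depend on length, but a change on the log2(FPKM + 1) scale does. Snhg12 in vehicle-treated tumors against normal liver was 2.98-fold on that scale and 3.44-fold by mean FPKM. Exons of Snhg6 share 127 bases (11.1% of its exons) with Mcmdc2 on the opposite strand. Mcmdc2 stayed at 0.0307 to 0.743 FPKM in the 12 libraries, and the counting was not stated to use strand.

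Library sizes recovered from the table lay between 17164125 and 25178774 reads. Reads per library ran from 111 (Snhg12 in a normal liver, 95% Poisson interval 91.3 to 134, counting error only) to 25639 (Neat1 in an MLN0128-treated tumor). Whole-gene FPKM of *Tsc2* was 4.50 to 5.32 in normal livers and 2.01 to 2.31 in vehicle-treated tumors, and *Rictor* read 1.65 to 2.57 and 1.05 to 1.5. By the test of any change both were lower in vehicle-treated tumors (*Tsc2* -0.91, adjusted p = 2.46e-05, and *Rictor* -0.44, adjusted p = 0.0115). *Tsc2* was 2.81 to 3.96 FPKM with MLN0128, higher than with vehicle (0.46, adjusted p = 0.0115), and 2.78 to 2.87 with everolimus. *Rictor* was 1.65 to 2.21 FPKM with MLN0128 and 1.58 to 1.93 with everolimus, overlapping normal liver. These are values of whole genes, the floxed exons were not analysed here, and the part of cells without recombination was not tested. Hepatocyte markers (6 genes, summed) fell from 81937 to 101770 FPKM in normal livers to 3710 to 5769 in vehicle-treated tumors, and all 6 passed the test of any change. Cholangiocyte markers (4 genes) summed to 17 to 52.5 FPKM in vehicle-treated tumors and to at most 4.28 elsewhere. Kupffer cell and macrophage markers (5 genes) summed to a median of 131 and at most 137 FPKM in normal livers. The sum was 36.1 to 58.9 in vehicle-treated tumors, 13.5 to 21.6 with MLN0128 and 22.3 to 74.0 with everolimus. By the test of any change, 3 of these 5 markers were lower in vehicle-treated tumors and 1 higher. Cd68 went against the sum, at a mean of 5.18 FPKM in normal livers and 29.9 in vehicle-treated tumors. Everolimus-treated replicate 2 stood apart, with Alb at 4860 FPKM and Clec4f at 26.2, against at most 1840 and 11.6 in the other tumors. Stellate cell markers (5 genes) summed to 55.1 to 78.2 FPKM in normal livers and 21.6 to 59.1 in tumors. Most of the sum in normal livers was Dcn, at a mean of 50.6 FPKM there and 4.05 in vehicle-treated tumors. By the test of any change, 3 of these 5 markers were higher in vehicle-treated tumors and 2 lower, so the sum does not give the direction of the list. Endothelial cell markers (5 genes) were at 23.3 to 31.7 and, in vehicle-treated tumors, 12.2 to 18.5. Erythroid markers (4 genes) summed to 219 to 588 FPKM in normal livers, 34.3 to 87.0 in vehicle-treated tumors, 15.4 to 39.7 after MLN0128 and 105 to 129 with everolimus. No listed marker of any cell type was at 0 in a whole group. Xist, made from the inactive X chromosome, read 191 and 155 FPKM in MLN0128-treated replicates 1 and 2 and at most 0.0699 in the other 10 libraries, so the members, lists and neighbours are also given without those 2, which leaves 1 library in that group. The authors' scaling factors were 0.585 to 0.596 in normal livers and 1.10 to 1.37 in tumors, which lowers every tumor value against normal liver. The part of these differences in the results below was not tested, apart from the scalings given.

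In vehicle-treated tumors, the snoRNA hosts Snhg1 and Snhg12 and the paraspeckle scaffold Neat1 were higher than in normal liver by more than 1.5-fold. Gas5 and Snhg6 were higher by the test of any change only. Snhg8 and Malat1 passed neither test. The test against a 1.5-fold change thus called 3 of the 7 RNAs higher, where it called 15.9% of all tested genes higher, and 0 lower against 16.8%. The test of any change called 5 higher and 0 lower, against 36% and 33% of all tested genes. Both are limma tests on log2(FPKM + 1) with Benjamini-Hochberg adjustment over all 14393 genes. On that scale the median change of the 7 was 0.61, and that of all tested genes 0.06.

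Snhg1, which hosts 8 snoRNA loci, read 5.40, 6.69 and 5.58 FPKM in the 3 normal livers. The vehicle-treated tumors gave 29.2, 32.1 and 20.2 FPKM. The groups did not overlap, and the change was 2.01 on the log2 scale (SE 0.20, adjusted p = 6.13e-05 against 1.5-fold). Mean FPKM was 4.61 times as high in the tumors, at 27.2 ± 6.21 against 5.89 ± 0.699 (SD, n = 3 each).

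Snhg12 read 4.48, 4.19 and 4.83 FPKM in normal livers, the lowest read counts of any of the 7 RNAs. In vehicle-treated tumors it read 15.7, 17.5 and 13.2 FPKM. Again every tumor lay above every normal liver, with a change of 1.58 (SE 0.15, adjusted p = 0.000118 against 1.5-fold). Snhg12 and Snhg1 passed this test with each of the 12 libraries left out in turn.

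Gas5, a host whose RNA rises when cells stop growing, read 27.2, 25.6 and 33.2 FPKM in normal livers and 47.6, 56.0 and 31.9 FPKM in vehicle-treated tumors. Vehicle-treated replicate 3 lay within the range of the normal livers. The change was 0.61 (SE 0.24), with an adjusted p of 0.0367 by the test of any change and 0.870 against 1.5-fold. The call by the test of any change was lost without normal liver replicate 1 or 2 or vehicle-treated replicate 1 or 2, with adjusted p up to 0.146.

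Snhg6, the host of Snord87, read 31.2, 28.6 and 31.1 FPKM in normal livers and 49.0, 51.9 and 36.3 FPKM in vehicle-treated tumors. The groups did not overlap. The change was 0.56 (SE 0.22), with an adjusted p of 0.0385 by the test of any change and 0.979 against 1.5-fold. That call was lost without any 1 of the 3 normal livers and without vehicle-treated replicate 1 or 2, with adjusted p up to 0.124, and by voom on recovered reads (0.0538).

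Snhg8, the host of Snora24, read 39.6, 27.7 and 32.0 FPKM in normal livers. Vehicle-treated tumors gave 43.1, 47.0 and 27.7 FPKM. The groups overlapped, and the change of 0.22 had a 95% interval of -0.35 to 0.79 (adjusted p = 0.466). With 3 samples a group, a rise or a fall within that interval was not excluded.

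Neat1 read 3.93, 3.17 and 6.74 FPKM in normal livers and 19.8, 22.6 and 10.8 FPKM in vehicle-treated tumors. Even the lowest tumor, replicate 3, was above the highest normal liver. The change was 1.73 (SE 0.35, adjusted p = 0.0127 against 1.5-fold). Without normal liver replicate 2 or vehicle-treated replicate 2 this adjusted p was 0.0515 or 0.0540, while the test of any change was passed in every such refit.

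Malat1 had the highest FPKM of the 7 in normal liver, at 93.0, 70.3 and 147. Vehicle-treated tumors gave 87.6, 87.5 and 65.5 FPKM, within or below that range. The change was -0.31 (95% interval -0.84 to 0.22, adjusted p = 0.277). Malat1 and Neat1 are neighbours on the chromosome, and Neat1 was 3.84 times as high in mean FPKM in these tumors while the mean of Malat1 was 0.775 times that of normal liver.

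**Figure D2:**
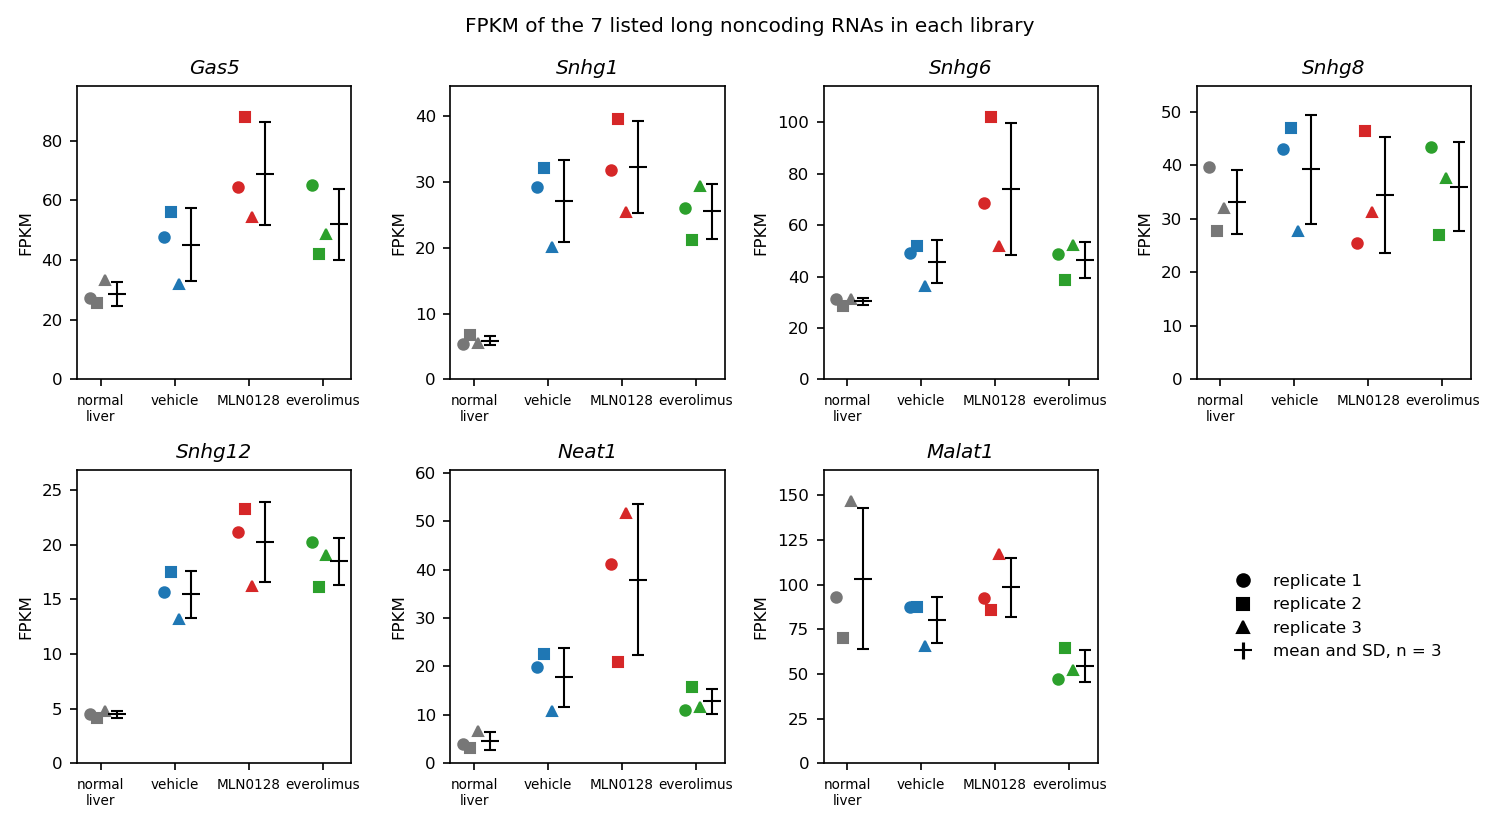
FPKM (vertical axis, linear from 0) of the 7 RNAs in each library (points) with group mean and SD (n = 3) for normal liver, vehicle-, MLN0128- and everolimus-treated tumors. Every tumor lies above every normal liver for Snhg1 (20.2 FPKM or more against 6.69 or less) and Snhg12 (13.2 or more against 4.83 or less), while the groups of Snhg8 overlap.

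The direction of these changes is relative to the scaling. When library totals replaced the authors' factors, the median of all tested genes moved from 0.06 to 0.62, and the share of calls against 1.5-fold that were higher moved from 48.5% to 82.3%. Under plain totals the changes were 2.80 for Snhg1, 2.33 for Snhg12, 2.48 for Neat1, 1.51 for Gas5, 1.47 for Snhg6 and 1.12 for Snhg8, and these 6 RNAs passed the test against 1.5-fold. Malat1 turned to +0.62, equal to the median of all tested genes (adjusted p = 0.724 against 1.5-fold, 0.0477 for any change). All of the 7 but Malat1 stood above the median of all genes under both scalings and under a median of log ratios. The median of log ratios gave 1.98 for Snhg1, 1.54 for Snhg12, 1.70 for Neat1, 0.57 for Gas5, 0.53 for Snhg6 and 0.18 for Snhg8. The median of all tested genes was 0.03 there. Snhg1, Snhg12 and Neat1 were those that passed the test against 1.5-fold under each of these scalings. As a share of all reads, the 7 RNAs together took 439 to 809 RPM (reads scaled to the plain library total) in normal livers and 1099 to 1721 RPM in vehicle-treated tumors.

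**Figure D3:**
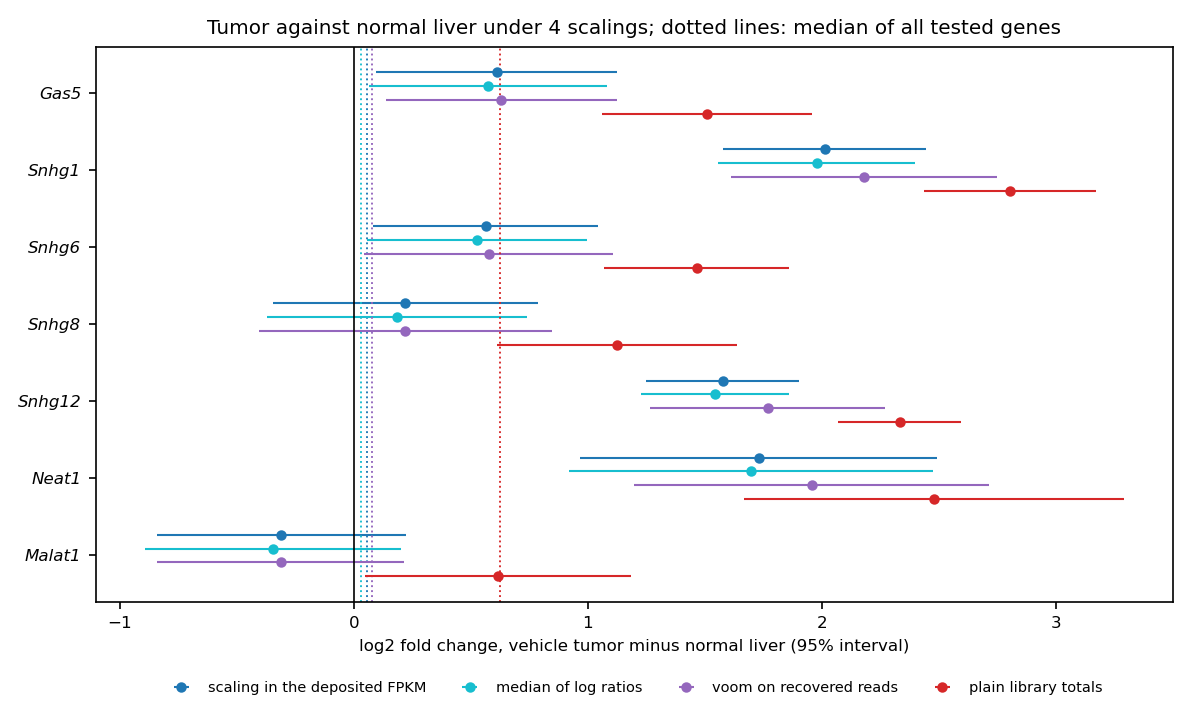
Log2 fold change of each RNA between vehicle-treated tumors and normal livers (horizontal axis, points with 95% interval) under 4 scalings, with dotted lines at the median of all tested genes. With plain library totals every RNA lies higher, and Malat1 moves from -0.31 to 0.62.

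MLN0128-treated tumors had higher Neat1 and Snhg6 than vehicle-treated tumors by the test of any change. The test against 1.5-fold called 0 of the 7 RNAs higher and 0 lower, where it called 0.479% of all tested genes higher and 1.65% lower. The test of any change called 2 higher and 0 lower, against 14.9% and 17.1%. At an unadjusted p below 0.05 there were 4, all higher (Gas5, Snhg6, Snhg12 and Neat1), against 20.6% of all tested genes higher and 22.3% lower. The median change of the 7 was 0.36, and that of all tested genes was -0.01.

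Neat1 read 41.2, 20.9 and 51.6 FPKM with MLN0128, against 19.8, 22.6 and 10.8 FPKM with vehicle. MLN0128-treated replicate 2 lay within the vehicle range, and the other two were above it. The change was 1.02 (SE 0.35, adjusted p = 0.0426). Without MLN0128-treated replicates 1 and 2, which carry Xist RNA, the change was 1.55 (adjusted p = 0.0392). Only replicate 3 then stands for MLN0128, the library with the most Neat1, and its spread is assumed to be that of the other groups. By voom on recovered reads the adjusted p of Neat1 with all libraries was 0.0503.

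Snhg6 read 68.5, 102 and 51.8 FPKM with MLN0128, against 49.0, 51.9 and 36.3 FPKM with vehicle. Replicate 3 of MLN0128 was just below the highest vehicle-treated tumor. The change was 0.65 (SE 0.22, adjusted p = 0.0430), and 0.19, no longer called, without MLN0128-treated replicates 1 and 2. Both calls were close to the threshold: with 1 of the 12 libraries left out, Neat1 lost its call in 7 refits and Snhg6 in 9. For Neat1 these were the refits without normal liver replicate 1, vehicle-treated replicate 1 or 3, MLN0128-treated replicate 1 or 3, or everolimus-treated replicate 1 or 3 (adjusted p up to 0.166). Snhg6 kept its call only without vehicle-treated replicate 2, MLN0128-treated replicate 3 or everolimus-treated replicate 2 (adjusted p up to 0.161 in the others).

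The other hosts gave values that did not pass. Gas5 read 64.5, 87.9 and 54.5 FPKM with MLN0128, with vehicle-treated replicate 2 at 56.0 the one tumor of that group above the lowest of these. Its change was 0.61 (95% interval 0.09 to 1.12, adjusted p = 0.0687). Snhg12 read 21.2, 23.3 and 16.2 FPKM, a change of 0.36 (95% interval 0.03 to 0.69, adjusted p = 0.0866). Snhg1 read 31.8, 39.6 and 25.5 FPKM, a change of 0.25 (95% interval -0.19 to 0.68). Snhg8 read 25.5, 46.5 and 31.3 FPKM, a change of -0.19 (95% interval -0.76 to 0.37). Malat1 read 92.6, 86.0 and 117 FPKM with MLN0128, a change of 0.29 (95% interval -0.24 to 0.83). Without MLN0128-treated replicates 1 and 2 the changes were 0.30 for Gas5, 0.07 for Snhg12, -0.06 for Snhg1, -0.28 for Snhg8 and 0.55 for Malat1, with adjusted p of 0.334 or more.

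Everolimus-treated tumors gave 0 calls among the 7 RNAs by either limma test. All tested genes gave 0.0347% higher and 0.57% lower against 1.5-fold, and 3.77% higher and 6.04% lower by the test of any change. At an unadjusted p below 0.05 there was 1 RNA, Malat1, which was lower, against 13.3% of all tested genes higher and 13.5% lower. The median change of the 7 was -0.07, and that of all tested genes 0.03.

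Malat1 read 47.0, 64.6 and 52.3 FPKM with everolimus, against 87.6, 87.5 and 65.5 FPKM with vehicle. All 3 everolimus-treated tumors were below all 3 vehicle-treated ones, the closest pair being 64.6 and 65.5. The change of -0.55 had a 95% interval of -1.08 to -0.01 and an adjusted p of 0.178. Neat1 read 11.1, 15.8 and 11.6 FPKM with everolimus, within or near the vehicle range, a change of -0.39 (95% interval -1.15 to 0.37).

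For the hosts, Gas5 read 65.1, 42.0 and 48.8 FPKM with everolimus, and Snhg6 48.6, 38.8 and 52.1. Snhg1 read 26.0, 21.2 and 29.4 FPKM, Snhg8 43.4, 27 and 37.7, and Snhg12 20.3, 16.1 and 19.1. Each of these ranges overlapped that of vehicle-treated tumors. Changes lay between -0.11 (Snhg8, 95% interval -0.68 to 0.45) and 0.25 (Snhg12, 95% interval -0.08 to 0.57). The intervals of Gas5 (-0.30 to 0.73) and Snhg12 reached above 0.56, the smallest change of the 7 RNAs that passed a test in these comparisons. Those of Snhg1 (-0.51 to 0.36), Snhg6 (-0.45 to 0.51) and Snhg8 ended below it. At its lower end the interval of Snhg8 reached -0.68, so a fall larger than 0.56 was not excluded for Snhg8.

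**Figure D4:**
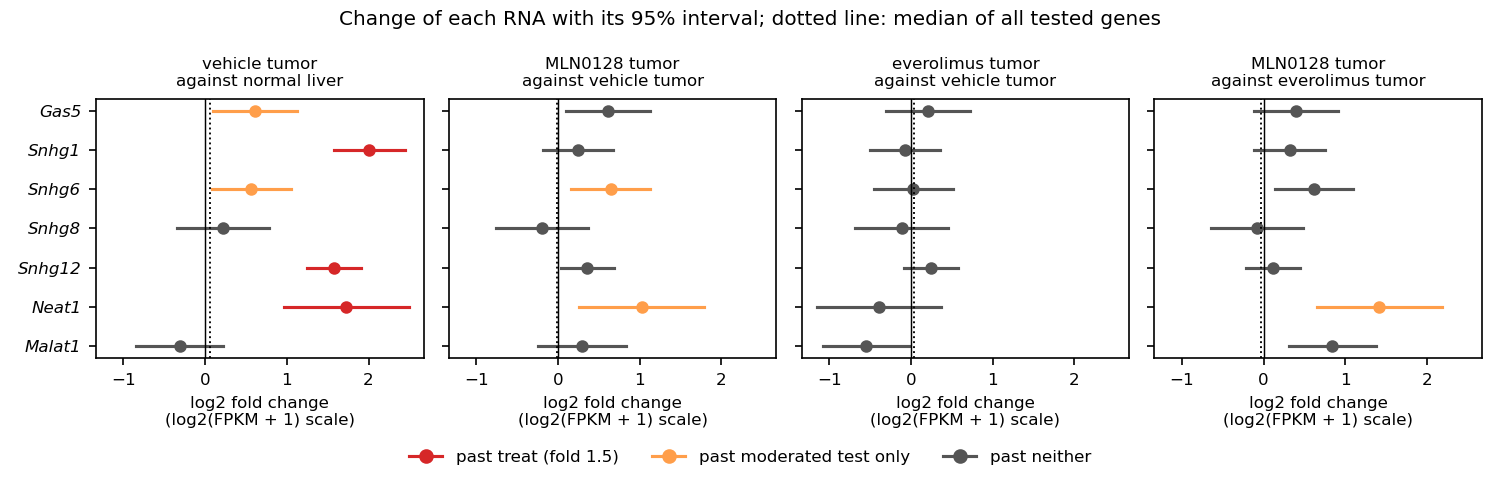
Log2 fold change on the log2(FPKM + 1) scale (horizontal axis) with 95% interval for each RNA in each comparison, and the median of all tested genes as a dotted line. Snhg1 (2.01), Neat1 (1.73) and Snhg12 (1.58) stand apart in tumor against normal liver, and Neat1 (1.42) is highest in MLN0128 against everolimus.

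Between the drugs, given at the same daily dose, Neat1 was higher with MLN0128 than with everolimus by the test of any change. That test called 1 of the 7 higher and 0 lower, against 3.99% and 5.54% of all tested genes. Against 1.5-fold it was 0 higher and 0 lower, against 0.00695% and 0.0347%. At an unadjusted p below 0.05 there were 3, all higher (Snhg6, Neat1 and Malat1), against 11.6% of all tested genes higher and 15.4% lower. This comparison shares its libraries with those above, so its values are not a second line of evidence.

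Neat1 at 41.2, 20.9 and 51.6 FPKM with MLN0128 lay above 11.1, 15.8 and 11.6 FPKM with everolimus in every library. The change was 1.42 (SE 0.35, adjusted p = 0.0297). The call was lost without MLN0128-treated replicate 1 or 3 or everolimus-treated replicate 1 or 3 (adjusted p up to 0.111), and without MLN0128-treated replicates 1 and 2 together, where the change was 1.94 (adjusted p = 0.0574). Markers of other cells moved in the same comparison: by the test of any change Hbb-bt (-2.72, adjusted p = 0.0102), Hba-a1 (-2.30, adjusted p = 0.0122) and Marco (-2.26, adjusted p = 0.0294) were lower with MLN0128, and their part was not tested. The call of Neat1 was kept without everolimus-treated replicate 2, the library with the most Marco. That library also had the most Neat1 of its group (15.8 FPKM), so this refit does not test the part of the markers. Malat1, the neighbour of Neat1, was also free of overlap, at 86.0 to 117 FPKM against 47.0 to 64.6. Its change of 0.84 (95% interval 0.31 to 1.37) had an adjusted p of 0.0520, and of 0.0451 by voom on recovered reads. Of the hosts, Snhg6 changed most in value, by 0.62 (95% interval 0.13 to 1.10, adjusted p = 0.0985). Gas5 (0.40), Snhg1 (0.32), Snhg12 (0.11) and Snhg8 (-0.08) had intervals that include 0. Without MLN0128-treated replicates 1 and 2 Malat1 had 1.10 (adjusted p = 0.146), Snhg6 0.16, Gas5 0.09, Snhg1 0.01, Snhg8 -0.17 and Snhg12 -0.17.

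In order of mean FPKM, Gas5 went from normal liver (28.7 ± 4.01) through vehicle (45.2 ± 12.2) and everolimus (52.0 ± 11.9) to MLN0128 (69.0 ± 17.1), where only the step from normal liver to vehicle passed a test. Snhg6 had the same order (30.3 ± 1.47, 45.7 ± 8.30, 46.5 ± 6.89 and 74.1 ± 25.6), as had Snhg12 (4.50 ± 0.320, 15.5 ± 2.16, 18.5 ± 2.16 and 20.2 ± 3.65). In both, only the first step passed a test between neighbours. Snhg1 went from normal liver (5.89 ± 0.699) to everolimus (25.5 ± 4.12), vehicle (27.2 ± 6.21) and MLN0128 (32.3 ± 7.06), with no test passed among the tumor groups. Snhg8 went from normal liver (33.1 ± 6.03) to MLN0128 (34.4 ± 10.8), everolimus (36.0 ± 8.33) and vehicle (39.3 ± 10.2), with neighbours less than 1 SD apart. Neat1 went from normal liver (4.61 ± 1.88) to everolimus (12.8 ± 2.58), vehicle (17.7 ± 6.17) and MLN0128 (37.9 ± 15.6), and vehicle and MLN0128 are the neighbours that passed the test of any change. Malat1 began with everolimus (54.6 ± 9.03), followed by vehicle (80.2 ± 12.7), MLN0128 (98.5 ± 16.3) and normal liver (103 ± 39.4), where no tested pair passed.

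Within groups, the RNAs fell into the host RNAs on one side and Neat1 with Malat1 on the other. Deviations from the group means over the 12 libraries had Pearson r of 0.65 to 0.92 among the 5 hosts and 0.83 between Neat1 and Malat1. Between a host and a nuclear RNA, r ran from -0.34 to 0.13. Over the 9 tumor libraries, with group differences included, the split was less clear. There Snhg8 had r of 0.37 to 0.61 with the other hosts, which had 0.79 to 0.92 among themselves. Between a host and a nuclear RNA, r then ran from -0.23 to 0.40. All points share library and scaling, so these values are a description of these libraries. In vehicle-treated replicate 3, for example, every host was at its lowest for that group, and so were Neat1 and Malat1, whereas MLN0128-treated replicate 2 had the highest value of every host and the lowest of Neat1 and Malat1 in its group.

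**Figure D5:**
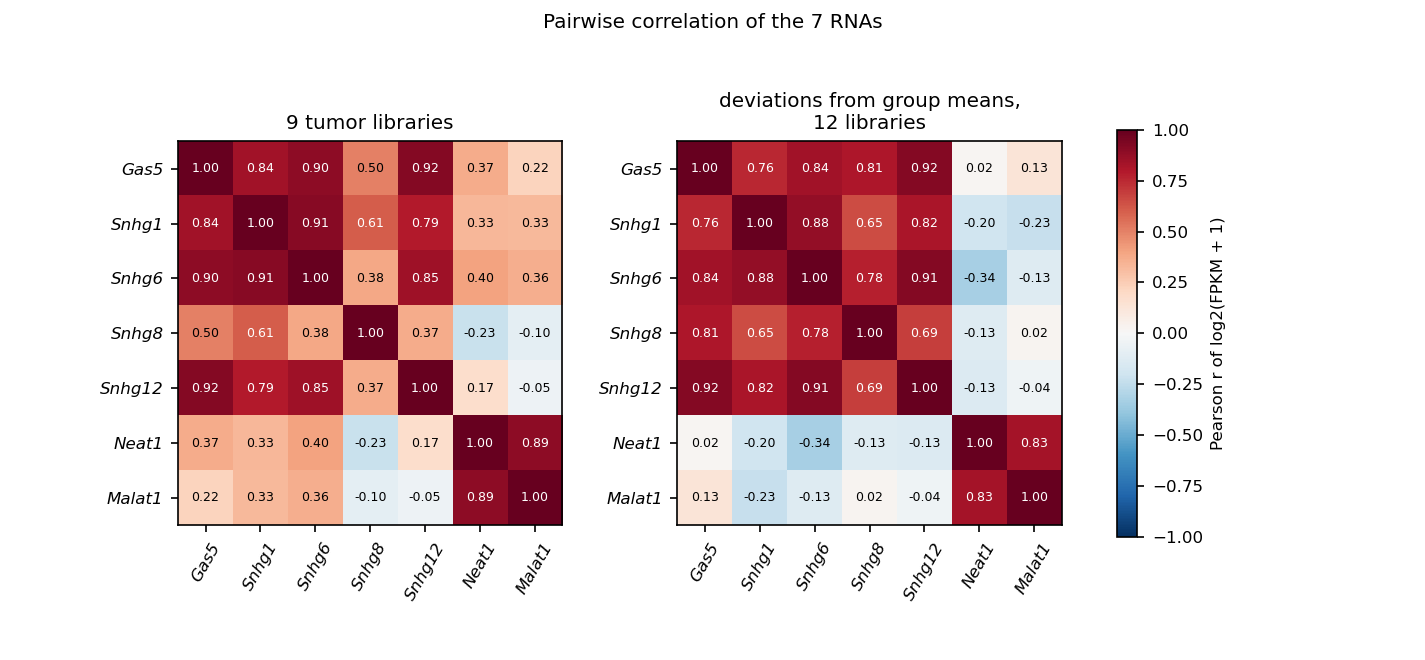
Pearson r of log2(FPKM + 1) between each pair of the 7 RNAs, over the 9 tumor libraries and for deviations from group means over 12 libraries (colour scale from -1 to 1). In the deviations the 5 hosts form 1 block (0.65 to 0.92) and Neat1 with Malat1 another (0.83). Over the 9 tumor libraries Snhg8 has lower r with the other hosts (0.37 to 0.61).

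Among 6771 genes with a mean of at least 5 FPKM in tumors, the genes closest to each RNA over the 9 tumor libraries were ranked by Pearson r. Gas5 was closest to 1110038B12Rik (0.961), a noncoding gene with 2 annotated snoRNAs, then to the ribosomal protein genes Rpl10a (0.960) and Rpl12 (0.956). Snhg6 was closest to 2410006H16Rik (0.959), a noncoding gene with 3 annotated snoRNAs, then to Rpl10a (0.952) and Epb41l4aos (0.949). Snhg12 was closest to Rpl3 (0.978), which hosts 2, then to Fpgs (0.972) and Gtpbp10 (0.972). Snhg8 was closest to Gm6136 (0.948), a pseudogene, then to Rpl41 (0.946) and Tpt1 (0.931). Snhg1 was closest to Cops2 (0.915), Snhg6 (0.912) and Nifk (0.910). Malat1 (0.895) and Maf1 (0.885) were among the 3 genes closest to Neat1, and Malat1 was closest to Smim19 (0.917), Neat1 (0.895) and Misp (0.885). With 9 libraries in 3 groups and this many candidates, values of this size are a ranking and no test.

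Most other noncoding snoRNA hosts were also higher in tumors than in normal liver. For this list and those below, the shares of all tested genes by the test of any change are given here. They were 36% higher and 33% lower in vehicle-treated tumors, and 14.9% and 17.1% with MLN0128 against vehicle. With everolimus against vehicle they were 3.77% and 6.04%, and between the drugs 3.99% and 5.54%. A count near these shares is no result about a list. Of 17 genes on this first list 14 were tested, and by the test of any change 13 were higher and 0 lower in the tumors given vehicle, with a median change of 1.38 beside 0.06 for all tested genes. The list also holds Mir17hg, a host of microRNAs, and Rmrp, the RNA of RNase MRP, which are not snoRNA hosts. Mir17hg was among the 14, at a mean of 1.53 FPKM in normal livers, 7.65 with vehicle and 16.6 with MLN0128. Rmrp was not tested. Snhg15 (2.83, adjusted p = 1.15e-08) and Zfas1 (1.98, adjusted p = 3.49e-05) had the largest changes. With MLN0128 against vehicle, 8 were higher and 1 lower. Zfas1, which hosts box C/D snoRNAs, read 53.2, 80.5 and 41.7 FPKM with MLN0128 against 30.7, 27.7 and 19.4 with vehicle, a change of 1.12 (adjusted p = 0.00778). Snhg11 was the 1 lower, by -1.20 (adjusted p = 0.000687), and it was lower with everolimus too, by -1.27 (adjusted p = 0.00158), as the single call of the list there. Its levels were low, at a mean of 1.7 FPKM with vehicle, 0.166 with MLN0128 and 0.108 with everolimus. At such levels a change on the log2(FPKM + 1) scale comes out smaller than by FPKM. Zfas1 was the single call between the drugs, 0.98 higher with MLN0128 (adjusted p = 0.0387).

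Coding snoRNA hosts gave 31 higher and 1 lower of 40 in vehicle-treated tumors (median 0.93), led by Nop56 (3.02), a core protein of box C/D snoRNPs, and Ncl (2.48), nucleolin. With MLN0128 4 of the 40 were higher, against 14.9% of all tested genes, and with everolimus 0, against 3.77%. The largest changes with MLN0128 were those of Eif4a2 (0.77, adjusted p = 0.00546) and Ddx39b (0.77, adjusted p = 0.00175), an RNA helicase each. Between the drugs 1 was lower with MLN0128, the splicing factor gene Snrpb (-0.50, adjusted p = 0.0343). Of 18 snoRNP proteins 16 were higher and 1 lower in vehicle-treated tumors (median 1.95), with Nolc1, a chaperone of snoRNPs, at 2.83. Nop56, Nop58 and Dkc1 are on this list and on that of the coding hosts. With MLN0128 against vehicle, Shq1, an assembly factor of box H/ACA particles, was higher by 0.34 (adjusted p = 0.0257) and Nhp2, a core protein of those particles, lower by -0.57 (adjusted p = 0.00802). Everolimus against vehicle and MLN0128 against everolimus gave 0 calls in this list by the test of any change.

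Other TOP mRNAs gave 16 higher and 0 lower of 22 in vehicle-treated tumors (median 1.02), led by Npm1 (2.41) and Hnrnpa1 (2.14). Eef1b2, Eef2, Tpt1 and Rack1 are also on the list of coding hosts, so the counts of these lists are not separate. The translation factors Eif4b (0.69, adjusted p = 0.00617) and Eef2 (0.60, adjusted p = 0.0490) were the 2 higher with MLN0128, and Nap1l1 (0.46, adjusted p = 0.0303) the 1 higher with everolimus. Of all tested genes 14.9% were higher with MLN0128 and 3.77% with everolimus, each against vehicle. Factors of nonsense-mediated decay gave 10 higher and 0 lower of 14 in vehicle-treated tumors (median 0.61), led by the kinase Smg1 (1.5) and Eif4a3 (1.25) of the exon junction complex. With MLN0128 2 of the 14 were higher and 1 lower, against 14.9% and 17.1% of all tested genes. Smg6, the endonuclease of the pathway, rose by 0.55 (adjusted p = 0.00469), and Smg5 fell by 0.60 (adjusted p = 0.00734). Smg5 was also lower with MLN0128 than with everolimus, by -0.57 (adjusted p = 0.0293). No listed decay factor passed with everolimus against vehicle.

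Paraspeckle proteins gave 13 higher and 1 lower of 15 in vehicle-treated tumors (median 0.62), with Smarca4 at the largest change (1.38). With MLN0128 Rbm14 was higher (0.72, adjusted p = 0.0113) among 2, and Taf15 was lower (-0.53, adjusted p = 0.0462). Of all tested genes 14.9% were higher and 17.1% lower in that comparison. With everolimus, where Neat1 did not pass, Rbm14 was again the 1 higher, by 0.77 (adjusted p = 0.0227). Nuclear speckle proteins and Malat1 partners gave 13 higher and 0 lower of 15 in vehicle-treated tumors (median 0.99), led by Rpp38 (1.49), a subunit of RNase P, and Rnps1 (1.48). With MLN0128 5 were higher and 1 lower, Srrm2 (0.66, adjusted p = 0.00793) and Pnn (0.56, adjusted p = 0.0260) having the largest changes.

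Other nuclear or chromatin long noncoding RNAs went both ways, with 4 higher and 4 lower of 12 tested in vehicle-treated tumors (median -0.06). Of all tested genes 36% were higher and 33% lower there. Mir22hg, the host of miR-22, was lower by -2.03 (adjusted p = 1.79e-05), and 1700020I14Rik by -1.19 (adjusted p = 1.81e-06). With MLN0128 6 were higher and 1 lower. The X-linked RNAs Jpx (1.54, adjusted p = 0.000715) and Firre (1.15, adjusted p = 0.00316) had the largest changes. Jpx, an activator of Xist, read 5.58 and 4.42 FPKM in the 2 MLN0128-treated tumors with Xist RNA and 2.35 in the third, against 0.888, 0.575 and 0.637 with vehicle. Against everolimus, Jpx was higher with MLN0128 by 1.16 (adjusted p = 0.0143) and the imprinted Rian lower by -1.0 (adjusted p = 0.0393). With everolimus against vehicle, Mir22hg was lower by -0.89 (adjusted p = 0.0427) and 1700020I14Rik higher by 0.49 (adjusted p = 0.0167).

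These list counts moved with the scaling. Under plain library totals, where the median of all tested genes in vehicle-treated tumors was 0.62, the 8 list medians there ran from 0.27 (other nuclear RNAs, below that of all genes) to 2.73 (snoRNP proteins). For MLN0128 against vehicle, plain totals gave 10 higher among the other noncoding hosts, 10 among the coding hosts, 7 among paraspeckle proteins and 8 among nuclear speckle proteins, where the authors' scaling gave 8, 4, 2 and 5. It gave 5 higher among snoRNP proteins, 6 among TOP mRNAs and 4 among decay factors, where the authors' scaling gave 1, 2 and 2. Of the 14393 tested genes, plain totals gave 3331 higher by the same test and the authors' scaling 2142. The call of Taf15 as lower was lost there, with 0 paraspeckle genes lower. Between the drugs, plain totals gave 6 higher among the other noncoding hosts in place of 1, and 1195 higher among all tested genes in place of 575.

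The list calls were also computed without MLN0128-treated replicates 1 and 2, with 1 library left in that group. Then 0 were higher by the limma test of any change among the other noncoding hosts, coding hosts, snoRNP proteins, TOP mRNAs, decay factors and nuclear speckle proteins, where all tested genes gave 4.72% higher and 7.5% lower. Zfas1 then had 0.69 (adjusted p = 0.182) and Firre 0.65 (adjusted p = 0.128). Rbm14 (1.10, adjusted p = 0.00983) and Jpx (0.98, adjusted p = 0.0277) were still called higher, and Snhg11 (-1.12, adjusted p = 0.0281), Nhp2 (-0.66, adjusted p = 0.0482) and Smg5 (-0.78, adjusted p = 0.0311) lower. Between the drugs, Zfas1, Snrpb, Smg5, Jpx and Rian all lost their calls, with adjusted p of 0.0933 to 0.382.

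Genes beside the members went several ways. Slc3a2, the heavy chain of amino acid transporters, starts 106 bases from Snhg1 on the opposite strand. It read 11.1, 15.3 and 8.47 FPKM in normal livers and 62.5, 72.2 and 71.4 in vehicle-treated tumors, a change of 2.50 (adjusted p = 9.83e-07) beside the 2.01 of Snhg1. With MLN0128 it was lower, at 24.1, 17.6 and 24.6 FPKM (-1.61, adjusted p = 0.000395), where Snhg1 had 0.25. Slc3a2 was also lower with everolimus than with vehicle (-0.81, adjusted p = 0.0326) and lower with MLN0128 than with everolimus (-0.79, adjusted p = 0.0375). Without MLN0128-treated replicates 1 and 2 these were -1.44 against vehicle (adjusted p = 0.0167) and -0.63 against everolimus (adjusted p = 0.281).

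Zbtb37, which overlaps Gas5 on the opposite strand with no shared exon base, changed by 0.22 in vehicle-treated tumors (adjusted p = 0.180) and rose by 0.44 with MLN0128 (adjusted p = 0.0299). Rab42, left of Snhg12, rose by 0.70 with MLN0128 (adjusted p = 0.0182), and Trnau1ap, 739 bases to the right, had -0.06 (adjusted p = 0.803). Frmd8, 4224 bases upstream of Neat1, was higher in vehicle-treated tumors (0.87, adjusted p = 0.00114). It was lower with MLN0128 (-0.62, adjusted p = 0.0227), where Neat1 was higher, and with everolimus (-0.68, adjusted p = 0.0385). Tcf24, next to Snhg6, was lower in vehicle-treated tumors (-1.57, adjusted p = 0.000875). Mettl14 (0.62, adjusted p = 0.000714) and Gm4617 (1.21, adjusted p = 0.000569), the distant neighbours of Snhg8, were higher there, while Wdr74 beside Snhg1 passed in none of the 4 comparisons. Without MLN0128-treated replicates 1 and 2, Rab42 had 1.25 against vehicle (adjusted p = 0.00583), while Zbtb37 (0.19, adjusted p = 0.499) and Frmd8 (-0.28, adjusted p = 0.383) lost their calls.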

How the data were processed

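Total RNA of 12 mouse livers or tumors was sequenced. Per the labels the submitters' processing notes name FastQC 0.11.7 and GRCm38; the aligner is not given in the sources used here. The authors counted reads per Ensembl gene, tested with edgeR (glmTreat) and deposited FPKM to 3 significant digits. How FPKM were scaled between libraries is not given in the sources used here; the factors named as the authors' were worked out from the table. 22 date-like symbols and 2 symbols listed more than once were left out, and 0 columns had no sample. Between 98.2% and 98.9% of values under 20 reads fell within 0.1 of a whole read (20% by chance), which gave the library sizes. voom on these reads tested 14283 genes and called 5837 (vehicle-treated against normal), 760 (MLN0128 against vehicle), 170 (everolimus against vehicle) and 13 (MLN0128 against everolimus).

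Genes at 0.5 FPKM in 3 libraries were fitted with limma 3.58.1 (R 4.3.3) on log2(FPKM + 1), all 12 libraries in 1 model with an intensity trend. treat tested against a 1.5-fold change, and the moderated test (any change) against 0; a call had a Benjamini-Hochberg adjusted p under 0.05. The pseudocount understates changes of low genes. The labels do not say more of the replicates than their numbers. In the model of all 12 libraries, each p-value rests on the spread within groups of 3 samples. That spread is pooled over all groups, not only those compared. Libraries of a group differed by more than counting noise in every pair.

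Text names the members, the 2 largest called changes per list and comparison, the 3 genes closest to each member, neighbouring genes and the targeted genes, some of which are not reported here; Xist and Mcmdc2 values were added after they were seen. Members and lists were chosen with earlier results of these data known. Figures used Python 3.11.15, pandas 2.3.3 and matplotlib 3.10.9. Alternatives were another pseudocount, filters, scalings, the test, the libraries in the fit, the trend, a replicate block and each library left out.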

Additional observations from a re-analysis of the deposited data

Results flagged for a closer look

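1 result of the 7 RNAs differed between the drug groups by a test of the difference itself: Neat1, whose change with MLN0128 minus that with everolimus was 1.42 on the log2(FPKM + 1) scale (SE 0.35, limma, adjusted p = 0.0297). It was higher in 3 of 3 MLN0128-treated tumors than in every everolimus-treated one. Leaving out 1 of the 12 libraries kept the call in 8 refits, with adjusted p from 0.0133 to 0.111, and it did not pass against a 1.5-fold change. Short and long Neat1 and the capture of RNA without a poly(A) tail were not tested.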

How the results depend on the processing

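Of 28 changes (7 RNAs in 4 comparisons), each under 23 alternatives, 620 values kept direction and call, 14 reversed, 8 became calls and 2 lost one. Against 1.5-fold, 3 RNAs were called in vehicle-treated tumors against normal liver, 6 with plain library totals and 5 by the test of any change. The drug comparisons gave 0 calls against 1.5-fold under all alternatives, and by the test of any change 2 (MLN0128 against vehicle), 0 (everolimus against vehicle) and 1 (MLN0128 against everolimus). Under alternatives chosen after seeing the data, with 1 library left out the test of any change gave 3 to 5 calls in tumor against normal liver, 0 to 3 in MLN0128 against vehicle and 0 to 2 between the drugs. For MLN0128 against vehicle it gave 1 without MLN0128-treated replicates 1 and 2 and 4 with plain totals, and between the drugs 0 and 3. Deviations from group means of libraries with the same replicate number had r of -0.289 to 0.148. As deviations from means of 3 libraries, they cannot show whether same-numbered samples shared a batch or a day, and the labels give only the numbers. With the replicate number as a block, the test of any change gave 0 calls in MLN0128 against vehicle and 0 between the drugs.

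Malat1 in tumor against normal liver reversed to 0.62 with plain totals. Without MLN0128-treated replicates 1 and 2, Snhg1 was -0.0625 in MLN0128 against vehicle and Snhg12 -0.175 between the drugs. Small changes crossed 0 when 1 library was left out. In everolimus against vehicle these were Gas5 (-0.0143 to 0.382), Snhg1 (-0.265 to 0.0566), Snhg6 (-0.125 to 0.151) and Snhg8 (-0.339 to 0.0765). Between the drugs Snhg8 ran from -0.314 to 0.107, and was 0.0573 with plain totals. Each reversed value lay within the 95% interval of the value it replaced, except that of Malat1, and the cause was not tested.

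Calls over all genes against 1.5-fold moved by more than 1.5 times in the drug comparisons. MLN0128 against vehicle gave 306, and 581 with a pseudocount of 0.1, 760 by voom, 173 from the 2 groups alone and 37 without MLN0128-treated replicates 1 and 2. Everolimus against vehicle gave 87, and 148, 170 and 38 under the first 3 of these. MLN0128 against everolimus gave 6, and 13 by voom and 3 from the 2 groups alone. With 1 library left out these counts ran from 120 (without MLN0128-treated replicate 1) to 408 (without MLN0128-treated replicate 3), from 54 (without everolimus-treated replicate 1) to 130 (without vehicle-treated replicate 2), and from 2 (without everolimus-treated replicate 1) to 19 (without MLN0128-treated replicate 3). By the test of any change the drugs differed in 1372 genes, and in 182 (without everolimus-treated replicate 3) to 1596 (without MLN0128-treated replicate 3), so the share set beside Neat1 there moves too. In MLN0128 against vehicle 22.5% of calls were higher, and 51.0% with plain totals, 37.5% with the pseudocount of 0.1, 37.1% by voom and 10.8% without those 2 replicates.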
